A study of Homo sapiens with 9 samples.

Results

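The genes described here are 8 genes of sterol uptake, export and esterification, NPC1L1, SCARB1, ABCG5, ABCG8, ABCA1, SOAT2, CD36 and NR1H3, taken by NCBI Gene ID from the 28395 genes of each count file. They were measured by RNA-seq in differentiated Caco-2, an established line of human colon cancer origin whose confluent cultures resemble absorptive enterocytes, with genotype WT in the labels. The 9 libraries form 3 groups of 3: regular culture medium as control, medium with 10 µM carmine, and medium with 20 µM carminic acid, each for 24 h. Carminic acid is a red anthraquinone pigment from cochineal, and carmine is the aluminium lake made from it. Carmine was given at the lower concentration, so compound and dose cannot be told apart. Each treatment was done in triplicate per the labels, with nothing on whether A, B and C were independent cultures, and the p-values therefore cover a spread that may be technical.

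Enterocytes take up free cholesterol at the brush border through NPC1L1, with the scavenger receptors SCARB1 and CD36 as further lipid receptors. Part of the sterol is pumped back to the lumen by ABCG5 and ABCG8, which work only as a pair, part is esterified by SOAT2 and packed into chylomicrons, and part leaves at the basal side through ABCA1 onto apolipoprotein A1. NR1H3 encodes the oxysterol receptor LXR alpha, a transcription factor known to switch on the genes of these exporters when sterol is plentiful.

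Total counts ran from 54871018 to 57581301 per library, and 16017 genes had enough counts for testing. All 10 enterocyte markers checked, among them VIL1, SI and ALPI, had enough counts for testing, with a summed level of 3537 to 3757 CPM (TMM-scaled library-normalised counts, on the usual CPM scale) in control, 3530 to 4077 with carmine and 3645 to 4017 with carminic acid. Of 8 hepatocyte markers, 6 stood above 1 CPM. The 8 together summed to 1008 to 1086 CPM in control, 1175 to 1249 with carmine and 1141 to 1234 with carminic acid. SERPINA1 made up most of these sums. The 5 goblet markers summed to 20.0 to 27.5 CPM in control. Most of that was TFF3 (15.1 CPM) and FCGBP (8.03 CPM), with MUC2 at 0 counts. The 4 stem and proliferating markers summed to 435.6 to 461.2 CPM in control. They summed to 341.3 to 446.8 CPM with carmine and 398 to 457.2 with carminic acid, most of it MKI67 and TOP2A. Log2 fold changes across 12939 genes followed the GC content of the transcript, with a Spearman coefficient of 0.20 for carmine and 0.60 for carminic acid, and transcript length, with -0.37 and -0.17. Of the sterol genes, 6 had enough counts for testing. ABCG8 passed the filter through only 3 libraries, control A, control B and carmine B. It is treated with ABCG5 and CD36 as a gene of few counts.

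In untreated cells the levels of the 8 genes covered several orders of magnitude. Per kilobase of coding sequence, SCARB1, the receptor for high-density lipoprotein, was the most abundant at 185.7 CPM per coding kilobase, with the control libraries between 175.6 and 193.4. SOAT2, the esterifying enzyme of enterocytes and hepatocytes, followed at 82.1 (76.7 to 85.4), and NR1H3 at 38.6 (36.6 to 40.0). NPC1L1 stood at 7.29 (6.87 to 7.78) and ABCA1 at 6.83 (5.97 to 7.83), so these neighbours were not separated beyond the spread of the libraries. ABCG8, at 0.0879 CPM per coding kilobase, and ABCG5, at 0.0573, were not separated from each other either, and CD36 was lowest at 0.00416. Per kilobase of transcript, ABCG5 (0.0408) and ABCG8 (0.0247) changed places and the other 6 genes held their rank.

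Related genes measured in the same control libraries place these levels. SOAT2 lay above its relative SOAT1, the esterifying enzyme of most other cells, at 34.2 CPM per coding kilobase (32.0 to 35.4). NR1H3 lay above NR1H2, which encodes LXR beta, at 21.0 (20.3 to 22.1). NPC1, the lysosomal relative of NPC1L1, stood at 25.2. LIMA1 and PDZK1 encode proteins that bind NPC1L1 and SCARB1, and stood at 102.3 and 126.0. The exporter gene ABCG1, at 0.0429 CPM per coding kilobase (0.0290 to 0.0572), was as scarce as ABCG5. Few counts thus covered all 3 G-family sterol exporters in this list, while ABCA1 was well covered with 2293 to 2966 counts per control library.

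**Figure D1:**
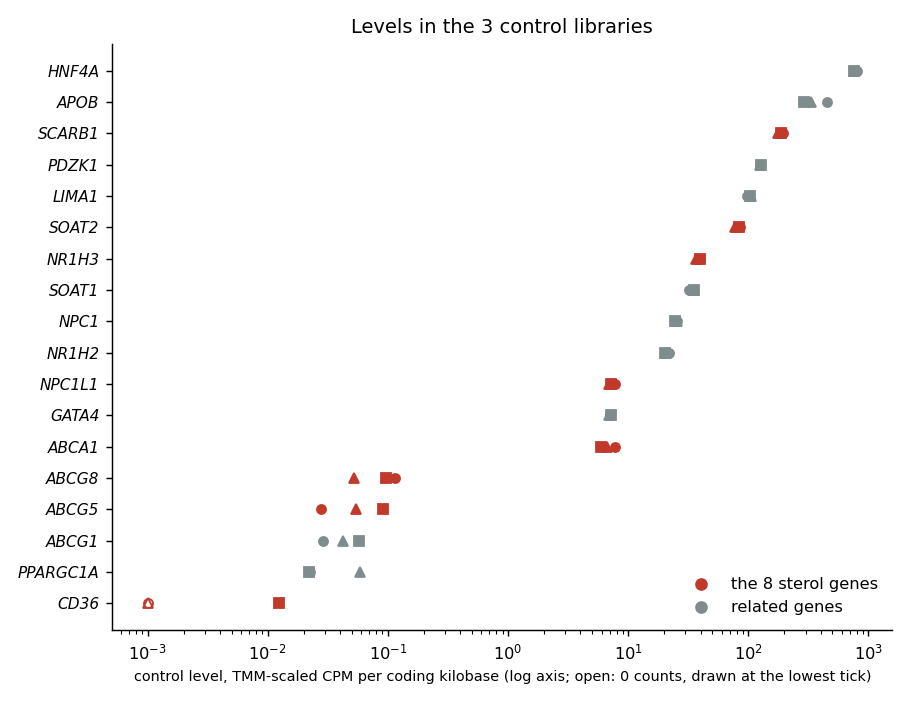
Control levels of the 8 sterol genes (red) and 10 related genes (grey), as TMM-scaled CPM per coding kilobase on a log axis, 1 symbol per control library. SCARB1, SOAT2 and NR1H3 lie above NPC1L1 and ABCA1, and ABCG8, ABCG5 and CD36 lie below 0.2.

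NPC1L1, the brush border cholesterol importer and target of ezetimibe, lies on chromosome 7 (positions 44512535 to 44541330, GRCh38.p14, minus strand). It stood at 31.7, 29.4 and 28.0 CPM in control libraries A, B and C. With carmine it stood at 27.7, 22.9 and 23.5 CPM, and with carminic acid at 31.7, 27.0 and 26.2 CPM. All 3 carmine libraries lay below all 3 control libraries, carmine library A by a narrow margin, whereas the carminic acid libraries overlapped control. NPC1L1 was the only one of the 5 genes with high counts whose carmine and control libraries did not overlap, where 15.0% of all tested genes had no overlap and 7.67% were lower without overlap. The carmine mean was 24.7 ± 2.60 CPM against 29.7 ± 1.88 CPM (SD, n = 3). The log2 fold change was -0.27 (SE 0.101, 95% interval -0.48 to -0.05), which did not pass over all genes tested (edgeR adjusted p = 0.394). Tested genes within 2 percentage points of its GC content had a median log2 fold change of 0.05 with carmine, and with GC and length trends removed NPC1L1 stood at -0.24 (edgeR adjusted p = 0.186). For carminic acid the log2 fold change was -0.07 (95% interval -0.28 to 0.15, edgeR adjusted p = 0.845).

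SCARB1, on chromosome 12 (124776856 to 124863864), stood at 320.3, 311.6 and 290.8 CPM in control libraries A, B and C. It stood at 331.8, 310.2 and 353.5 CPM with carmine, and at 331.1, 363.0 and 363.6 CPM with carminic acid. Every carminic acid library lay above every control library, and carmine library B lay inside the control range. Among the 5 genes with high counts SCARB1 alone had no overlap for carminic acid, where 20.8% of all tested genes had none and 12.0% were higher without overlap. The log2 fold change for carminic acid was 0.20 (SE 0.0732, 95% interval 0.04 to 0.35), a fold of 1.15, and did not pass (edgeR adjusted p = 0.717). Genes of like GC content had a median of 0.085 in that comparison, and with GC and length trends removed SCARB1 stood at 0.14 (edgeR adjusted p = 0.460). For carmine the log2 fold change was 0.11 (95% interval -0.05 to 0.27, edgeR adjusted p = 0.569).

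SOAT2, also on chromosome 12 (53103486 to 53124535), stood at 133.8, 131.8 and 120.2 CPM in control. It stood at 134.0, 124.1 and 164.5 CPM with carmine and at 129.2, 143.7 and 152.1 CPM with carminic acid. The groups overlapped, and carmine library C was the highest of all 9. The log2 fold changes were 0.13 for carmine (95% interval -0.08 to 0.34, edgeR adjusted p = 0.616) and 0.14 for carminic acid (95% interval -0.07 to 0.35, edgeR adjusted p = 0.729). With GC and length trends removed both were 0.07. Without carmine library C the carmine value was 0.01, so 1 library carried most of that difference.

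NR1H3, on chromosome 11 (47248300 to 47269033), stood at 54.9, 55.9 and 51.2 CPM in control, at 51.5, 50.2 and 63.1 CPM with carmine and at 53.0, 55.2 and 60.9 CPM with carminic acid. Carmine library C and carminic acid library C were the highest, and the groups overlapped. The log2 fold changes were 0.02 for carmine (95% interval -0.18 to 0.23) and 0.06 for carminic acid (-0.14 to 0.26), with edgeR adjusted p-values of 0.939 and 0.850. The sign for carmine was not fixed: it was -0.01 with library size alone as scaling and -0.08 without carmine library C.

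SOAT2 and NR1H3 moved together from library to library, with a Pearson coefficient of 0.92 over the 9 libraries, and SCARB1 and SOAT2 with 0.86. The 3 genes have transcripts of 55.4% to 57.8% GC, and NPC1L1, which did not follow them, has 58.7%. Carmine library C, high in all 3, had a GC trend of 0.58 (Spearman, deviation of log2 CPM against GC content), against -0.54 and -0.52 in carmine libraries A and B. The part of this trend in the coefficients was not tested. Among 13123 candidate genes (average log2 CPM 0 or higher), the levels most like SOAT2 over the 9 libraries were those of SHISA5 (0.97), DPM2 and FTL (0.96 each). Those most like NR1H3 were SLC27A3 (0.98), E2F4 and PIGS (0.96 each), and those most like SCARB1 were CLPTM1 and TBC1D13 (0.98 each) and SMO (0.97). NPC1L1 had coefficients of -0.22 against SCARB1 and -0.36 against SOAT2. The levels most like it were those of NSD1, NCBP3 and MICAL2 (0.95 each).

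**Figure D2:**
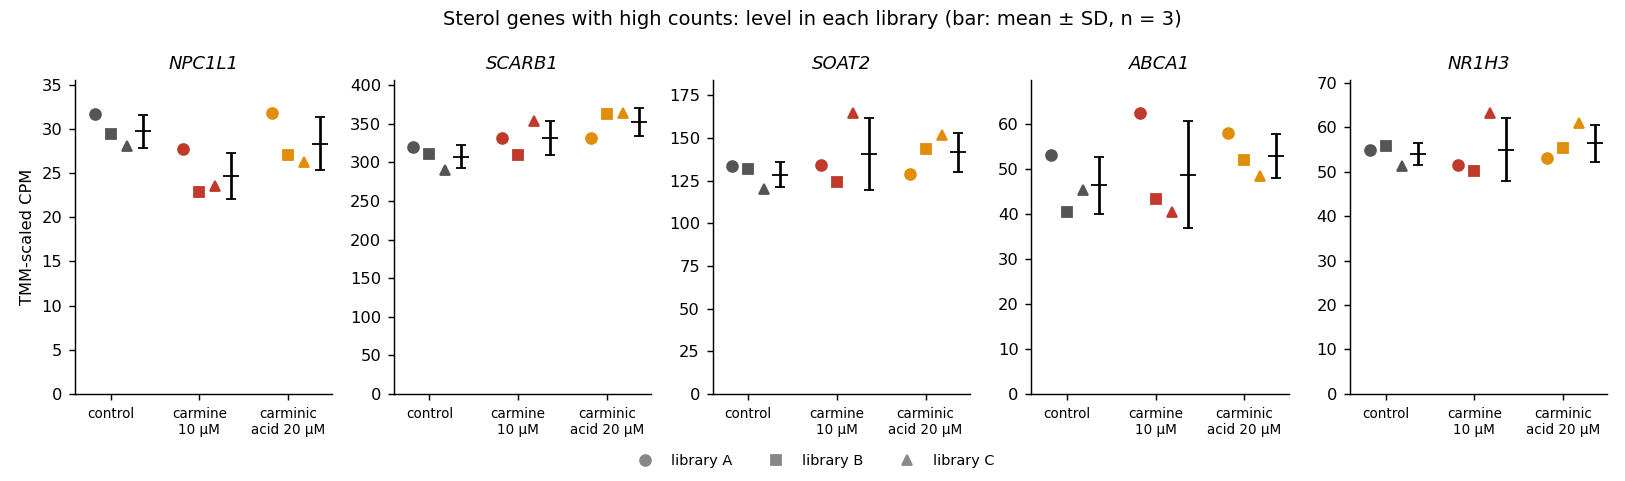
TMM-scaled CPM of the 5 sterol genes with high counts in each of the 9 libraries, with the mean and SD of each group of 3; axes start at 0 and differ between panels. Carmine libraries lie below control for NPC1L1, carminic acid libraries lie above control for SCARB1, and the groups overlap for SOAT2, ABCA1 and NR1H3.

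ABCA1, the exporter mutated in Tangier disease, lies on chromosome 9 (104781006 to 104928155, minus strand). It stood at 53.1, 40.5 and 45.4 CPM in control libraries A, B and C. It stood at 62.4, 43.4 and 40.5 CPM with carmine and at 58.1, 52.1 and 48.4 CPM with carminic acid. Library A was the highest of its group in each of the 3 groups, and the groups overlapped. The log2 fold changes were 0.07 for carmine (SE 0.149, 95% interval -0.25 to 0.40, edgeR adjusted p = 0.871) and 0.19 for carminic acid (95% interval -0.13 to 0.51, edgeR adjusted p = 0.741). The carmine value was -0.14 without carmine library A, -0.01 without control library B and 0.20 without carmine library C. The ABCA1 transcript is 10494 bases long, and libraries A had a length trend of 0.28 in control, 0.31 with carmine and 0.32 with carminic acid (Spearman, deviation of log2 CPM against transcript length), whereas carmine library C had -0.50. Control library C had a trend of 0.30, like control library A, with less ABCA1. The part of this trend in the ABCA1 values was not tested. Among 13123 candidate genes, the levels most like ABCA1 over the 9 libraries were those of ZCCHC14, APOB and FREM2 (Pearson 0.95 each). APOB, which encodes the structural protein of chylomicrons, has a transcript of 14121 bases. It too was highest in library A of each group. The part of transcript length in this likeness was not tested.

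The 250 bases before the ABCA1 start site (chr9:104928156-104928405, minus strand, RefSeq, GRCh38.p14) are shown because ABCA1 is the classical LXR target of the set. Capitals mark matches to 3 motifs searched on both strands, which do not overlap one another here: a DR4-like LXR element (direct repeats of the kind LXR binds), GGGCGG, the GC box of Sp1, and TATAAA. The first lies on the opposite strand 53 bases before the start and was present in 0.225% of 35116 RefSeq promoter windows of 300 bases. The GC box, with 3 matches, was present in 44.95% and TATAAA in 11.5%.
ABCA1 upstream: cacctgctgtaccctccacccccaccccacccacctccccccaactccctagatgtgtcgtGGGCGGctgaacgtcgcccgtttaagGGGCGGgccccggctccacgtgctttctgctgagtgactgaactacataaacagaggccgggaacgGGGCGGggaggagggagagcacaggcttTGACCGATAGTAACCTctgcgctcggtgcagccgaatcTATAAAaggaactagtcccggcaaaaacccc

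Across the 5 genes with high counts, none passed an adjusted p of 0.05 in any comparison. The same held for all tested genes with carmine and carminic acid against control (0% called), where 11.0% and 6.43% of genes had an unadjusted p under 0.05. DESeq2 called 76 and 6 genes and limma-voom 43 and 34, again with no sterol gene among them. The fitted folds of these 5 genes lay between 0.831 and 1.10 for carmine and between 0.953 and 1.15 for carminic acid. Their 95% intervals together ran from a fold of 0.716 to 1.32 for carmine and from 0.821 to 1.43 for carminic acid, for changes in RNA level. Fewer cells expressing a gene and less RNA per cell cannot be told apart in these bulk samples.

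The compounds were also compared with each other, at 10 µM carmine and 20 µM carminic acid. NPC1L1 stood at 24.7 ± 2.60 CPM with carmine and 28.3 ± 2.99 CPM with carminic acid (log2 difference -0.20, 95% interval -0.41 to 0.02, edgeR adjusted p = 0.596). SCARB1 stood at 331.8 ± 21.7 and 352.5 ± 18.6 CPM (-0.09, -0.24 to 0.07, edgeR adjusted p = 0.756). ABCA1, SOAT2 and NR1H3 had log2 differences of -0.12, -0.01 and -0.04, and the intervals of all 5 genes together ran from a fold of 0.739 to 1.15. Only 1 gene of 16017 passed in this comparison (0.00624% called), and it was none of these. The lower NPC1L1 with carmine was therefore not shown to differ between the compounds. Each treated group was compared with the same 3 control libraries.

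**Figure D3:**
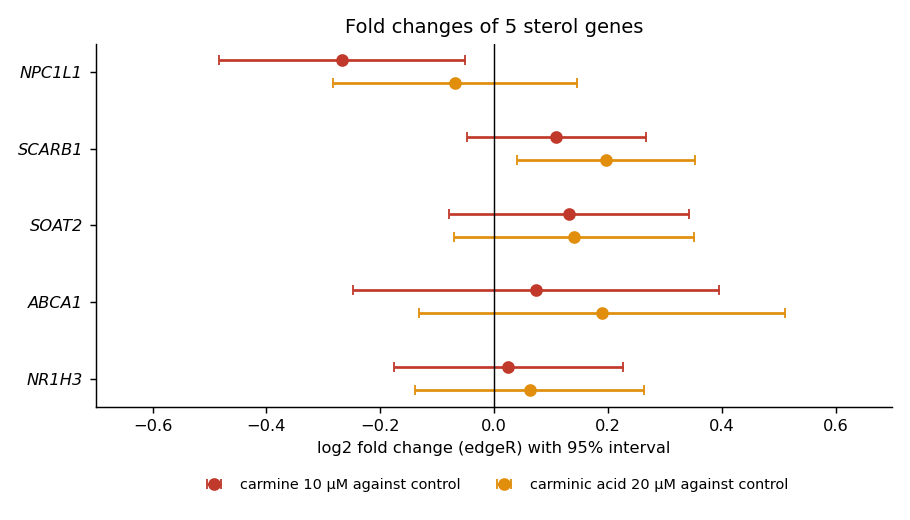
Log2 fold changes of the 5 sterol genes with high counts against control, from edgeR, with 95% intervals; red is carmine and orange is carminic acid. The interval lies wholly below 0 for NPC1L1 with carmine and wholly above 0 for SCARB1 with carminic acid, and covers 0 for the rest.

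ABCG5 and ABCG8, the paired subunits of the apical sterol pump whose loss causes sitosterolemia, were nearly silent. They lie head to head on chromosome 2, with RefSeq start sites 132 bases apart, and their RefSeq gene models overlap by 261 bases. No source used here gives the strand setting of the counting, and reads in that overlap cannot be assigned with certainty. ABCG5 had 3, 10 and 6 counts in control libraries A, B and C, 2, 2 and 5 with carmine and 4, 4 and 9 with carminic acid. ABCG8 had 13, 11 and 6 counts in control, 0, 10 and 2 with carmine and 2, 4 and 2 with carminic acid. For ABCG8 the carminic acid libraries lay below the control libraries, as they did for 8.82% of all tested genes, while carmine library B lay inside the control range, and for ABCG5 the groups overlapped.

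Summed over 3 libraries, ABCG8 had 30 counts in control, 12 with carmine and 8 with carminic acid. The ratios to control were 0.401 (95% interval 0.187 to 0.806) and 0.269 (0.106 to 0.600). These exact intervals cover counting error only and not the spread between libraries. In edgeR, which includes that spread, the log2 fold change for carminic acid was -1.85 (SE 0.838, 95% interval -3.64 to -0.06) and did not pass (adjusted p = 0.717). For carmine it was -1.29 (95% interval -2.96 to 0.37, edgeR adjusted p = 0.529), and between carmine and carminic acid it was 0.56 (-1.51 to 2.63, edgeR adjusted p = 0.889). ABCG8 passed the filter through control libraries A and B and carmine library B, and through no carminic acid library. Its control level was thus partly selected for being high, which limits the values against control. ABCG5 summed to 19, 9 and 17 counts, with ratios to control of 0.474 (0.189 to 1.10) and 0.901 (0.440 to 1.83). Over the 9 libraries the levels most like ABCG8 were those of SCLT1 (Pearson 0.97), RBM45 (0.92) and HMGN3 (0.91), a ranking that rests on the few ABCG8 counts. Of 1484 genes with 20 to 50 counts in all libraries together, 6.27% were lower without overlap for carminic acid, as ABCG8 was.

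The 131 bases between the start sites (chr2:43838840-43838970, plus strand, ABCG8 direction, RefSeq, GRCh38.p14) are shown because they separate the start sites of both scarce genes in the RefSeq promoter table; the ABCG5 gene model reaches 261 bases into ABCG8, beyond this stretch. Capitals mark the match to AGATAA, the site of GATA factors, on the strand of ABCG5. Of the 35116 promoter windows, 10.3% held this motif on either strand.
ABCG5-ABCG8 shared: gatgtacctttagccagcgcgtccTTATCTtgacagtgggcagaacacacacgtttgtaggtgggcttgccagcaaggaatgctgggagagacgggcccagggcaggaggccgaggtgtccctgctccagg
GATA4, a factor known to act on this pair with HNF4A, was present at 9.35 ± 0.156 CPM in control, and HNF4A at 1100 ± 35.6 CPM. The part of either factor in the levels of the pair was not tested.

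CD36, a fatty acid and lipoprotein receptor of many cell types and a relative of SCARB1, lies on chromosome 7 (80602207 to 80679274). It had 0, 1 and 0 counts in control libraries A, B and C, 5, 8 and 6 with carmine, and 4, 2 and 7 with carminic acid. Every treated library lay above every control library, at levels of at most 0.143 CPM. The sums were 1, 19 and 13 counts, and the ratios to control were 19.0 for carmine (95% interval 3.02 to 790.5) and 13.1 for carminic acid (1.97 to 556.3). These intervals again cover counting error only. CD36 was too scarce for the filter, and without a filter it did not pass (log2 fold change 3.82, edgeR adjusted p = 0.383 for carmine; 3.29, adjusted p = 0.794 for carminic acid). Of the 1484 genes with 20 to 50 counts, 4.38% were higher without overlap for carmine and 3.30% for carminic acid.

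Markers of other cell types that carry CD36 were checked beside it. The leukocyte marker PTPRC had 0 counts in control, 8 with carmine and 0 with carminic acid. Of the macrophage markers, CD163 had 30, 24 and 16 counts and MRC1 35, 37 and 33, in the same order. CD14, with 1104, 1145 and 1135 counts, and CSF1R, with 1142, 1050 and 1074, were well covered. The summed macrophage list ran from 313.5 to 348.5 CPM in control, 341.7 to 356.9 with carmine and 333.4 to 402.1 with carminic acid, most of it CD68. Of the adipocyte markers, LEP had 0 counts in all libraries, ADIPOQ had 2, 4 and 2, and PLIN1 had 137, 151 and 151. Of the endothelial markers, KDR had 0 counts in all libraries and CDH5 had 22, 24 and 29. VWF had 186, 178 and 160 counts and PECAM1 1782, 1879 and 1918. The summed adipocyte list ran from 49.8 to 57.7 CPM in control, 56.0 to 77.0 with carmine and 56.0 to 66.4 with carminic acid, most of it CIDEC. The endothelial list lay between 10.8 and 13.7 CPM in all groups. The part of other cells in the CD36 counts was not tested. RefSeq lists 6 start windows for CD36, and these gene-level counts do not say which was used.

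**Figure D4:**
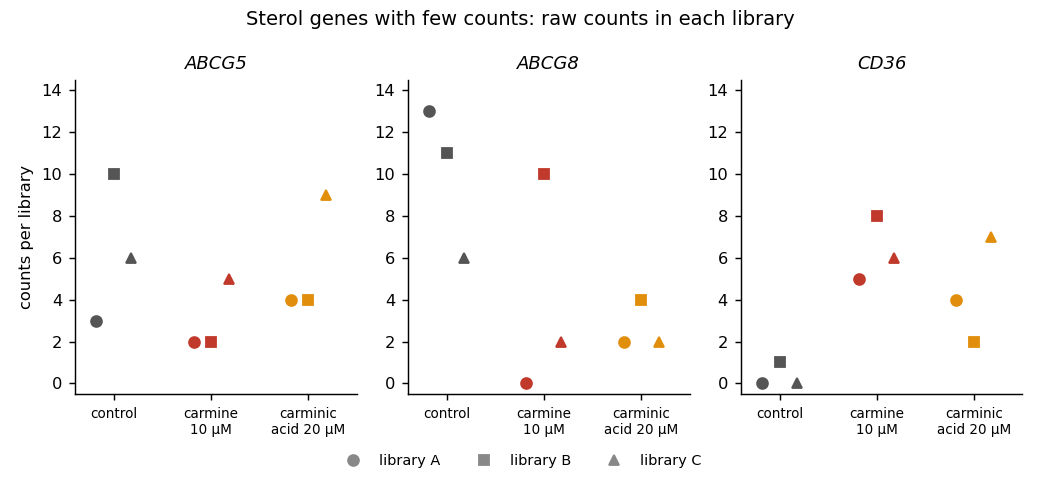
Raw counts per library of ABCG5, ABCG8 and CD36, the 3 sterol genes with few counts, in the 3 groups. CD36 has 0 or 1 count in control and 2 to 8 in treated libraries, and ABCG8 has 6 to 13 in control and 0 to 10 in treated libraries.

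Other genes of sterol handling were taken as 8 lists with 88 genes, of which 86 could be tested, and none passed in any of the 3 comparisons. With carmine 12 of the 86 had an unadjusted p under 0.05, against 11.0% of all tested genes, and with carminic acid 6, against 6.43%. The 12 partners and targets of LXR had a median log2 fold change of 0.05 with carmine (8 higher, 4 lower) and 0.08 with carminic acid (10 higher, 2 lower), beside 0.01 and -0.01 over all tested genes. Of all 16017 tested genes, 8276 were higher with carmine and 7706 with carminic acid. Among the LXR partners and targets the exporter gene ABCG1 had 4, 8 and 6 counts in control. It had 12, 16 and 12 with carmine and 10, 15 and 10 with carminic acid. The treated libraries of ABCG1 lay above control without overlap, as did 7.32% of all tested genes for carmine and 12.0% for carminic acid, and the gene passed the filter only through treated libraries (log2 fold change 1.14 with carmine, edgeR adjusted p = 0.422). PLTP, the phospholipid transfer protein gene, stood at 79.4 CPM with carminic acid against 66.7 in control (0.25, edgeR adjusted p = 0.717). MYLIP, which encodes an LXR-induced ubiquitin ligase, had 0.09 and 0.06, and SREBF1 had -0.08 and 0.01. The lowest value of the list, chosen after its values were seen, was -1.46 for RXRB with carmine, with a 95% interval of -5.96 to 3.05 and overlapping groups (edgeR adjusted p = 0.790).

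The 14 genes of the SREBP2 system, which senses low sterol and switches on sterol synthesis, had a median of -0.03 with carmine (6 higher, 8 lower) and -0.10 with carminic acid (5 higher, 9 lower). IDI1, an isomerase of the mevalonate pathway, stood at 79.6 CPM with carminic acid against 93.9 in control (-0.24, edgeR adjusted p = 0.717). LSS, the lanosterol synthase gene, stood at 48.0, 48.9 and 40.4 CPM with carmine and at 61.9, 83.7 and 72.2 in control (-0.67, edgeR adjusted p = 0.454). With carminic acid LSS stood at 88.9, 45.0 and 43.6 CPM in libraries A, B and C (-0.30, edgeR adjusted p = 0.784). Carminic acid library A thus lay above every control library, and libraries B and C lay below every one.

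Lysosomal and intracellular sterol carriers had medians of 0.03 and 0.05. LIPA, the lysosomal acid lipase gene, stood at 384.3 CPM with carmine against 335.1 in control (0.20, edgeR adjusted p = 0.375). It passed with GC and length trends removed (edgeR adjusted p = 0.0429), a fit that called 186 genes, or 1.16% of those tested. VPS13A, a lipid transfer protein gene, stood at 38.6 CPM with carminic acid against 47.9 in control (-0.31, edgeR adjusted p = 0.717). In that comparison it passed with only the 6 libraries compared (edgeR adjusted p = 0.0459), a fit that called 49 genes, or 0.310% of those tested. With carmine VPS13A was lower to a like degree, at 39.4 CPM (-0.28, edgeR adjusted p = 0.400), with overlapping groups. Its transcript has 37.0% GC and 15320 bases. The esterification list had medians of 0.04 and 0.03, with SOAT1 at -0.02 and -0.06. DGAT2, a triglyceride synthase gene, stood at 71.2 CPM with carmine against 59.8 in control (0.25, edgeR adjusted p = 0.374) and passed with the trends removed (edgeR adjusted p = 0.0445). CEL, a bile salt lipase gene, had 0.24 with carminic acid (edgeR adjusted p = 0.717).

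The 9 genes of chylomicron and HDL assembly had medians of 0.14 with carmine and 0.12 with carminic acid, 8 higher and 1 lower in both. Over all 16017 tested genes, 8276 were higher with carmine and 7706 with carminic acid. Of the 9, APOA1, APOA4 and APOC3 have transcripts of 60.4% to 62.7% GC, and SAR1B, MTTP and APOB of 39.0% to 43.5%. The part of GC content in these medians was not tested. APOC3, an inhibitor of lipoprotein clearance, stood at 718.5 CPM with carmine against 573.6 in control (0.32, edgeR adjusted p = 0.332) and at 639.5 CPM with carminic acid (0.16, edgeR adjusted p = 0.717). With GC and length trends removed the carmine value was 0.23 and passed (edgeR adjusted p = 0.0317), in a fit that called 1.16% of tested genes. The 8 fatty acid uptake genes beside CD36 had medians of 0.08 (8 higher) and 0.05 (7 higher, 1 lower), with the transport protein gene SLC27A4 at 0.25 and 0.21 (edgeR adjusted p = 0.429 and 0.717).

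Scaffold and trafficking partners had medians of 0.07 and -0.01, with ANXA2, a membrane scaffold gene, at 0.18 for carmine (edgeR adjusted p = 0.417) and RAB11FIP2, a recycling endosome gene, at -0.23 for carminic acid (edgeR adjusted p = 0.717). Nuclear receptors and regulators had medians of 0.01 and 0.07. NR1H4, the bile acid receptor gene FXR, stood at 4.07, 3.90 and 4.05 CPM with carmine and at 2.69, 2.76 and 2.98 CPM in control. Its carmine libraries lay above control without overlap, as did 7.32% of all tested genes, and its value of 0.51 did not pass (edgeR adjusted p = 0.322).

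**Figure D5:**
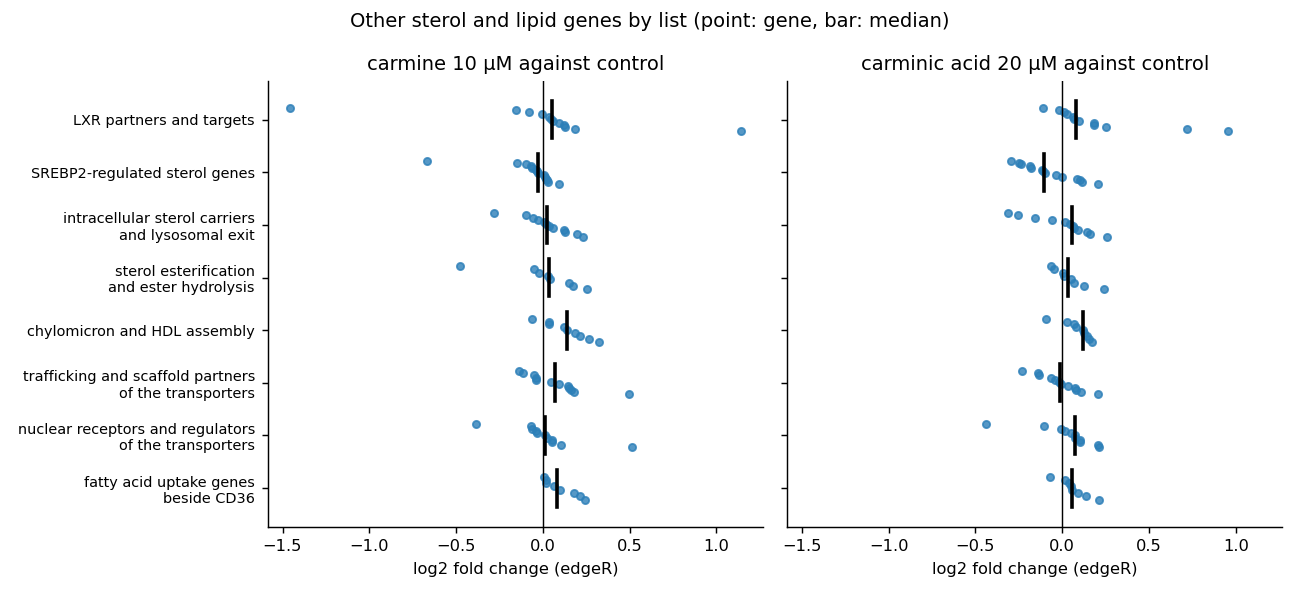
Log2 fold changes of the 86 tested genes of 8 sterol and lipid lists, from edgeR, for carmine (left) and carminic acid (right) against control; each point is a gene and the black bar is the median of its list. Medians lie between -0.03 and 0.14 for carmine and between -0.10 and 0.12 for carminic acid.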

How the data were processed

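The deposited values are raw counts per NCBI Gene ID, 1 file per library. The column names of the deposited tables record HISAT2 alignments, per the file headers. The submitters' processing notes list FastQC, HISAT and featureCounts with hg38 and no versions. Strand setting, annotation release and kit: not given in the sources used here. Symbols and positions came from RefSeq (GRCh38.p14), which matched 27745 of 28395 genes, and lengths and GC content from GENCODE 29. Promoter windows were found for 6 of the 8 members.

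Counts were filtered with filterByExpr, scaled with TMM and fitted over all 9 libraries in R 4.3.3 with edgeR 4.0.16 (quasi-likelihood, robust), with Benjamini-Hochberg adjustment over 16017 genes and a threshold of 0.05. The biological coefficient of variation was 10.9%. DESeq2 1.42.0 and limma 3.58.1 were alternatives. The fit was tested on simulated data with known changes and the same dispersion for every gene. Where a GC trend was planted, only the fit with trends removed was run. The main fit was therefore not tested under the GC and length trends of these libraries. Pairs of libraries within a group differed by 9.51 chi-square per degree of freedom or more, so none was a copy.

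Members and lists were chosen with earlier results of these data known. All 8 members were named, and of each list the genes past the threshold and the gene with the smallest p for each dye; other list genes named were chosen after their values were seen. Some list genes are not reported here by name. Likeness is Pearson's coefficient of log2 CPM.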

Additional observations from a re-analysis of the deposited data

How the results depend on the processing

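No sterol gene passed the threshold under any alternative run that tested it. ABCG5 and CD36 did not pass the main filter, and ABCG8 was tested in 18 or 19 alternatives, depending on the comparison. NPC1L1 with carmine (-0.36 to -0.22) and SCARB1 with carminic acid (0.14 to 0.23) kept their direction in all 20. For NPC1L1 with carmine, the adjusted p-values of these 20 runs, from edgeR, DESeq2 or limma-voom, ran from 0.0739 to 0.676. For all genes with carmine against control, the count of 0 became 7 with RLE factors or library size alone, 19 with no filter, 76 with DESeq2, 43 with limma-voom, 12 with only the 6 libraries compared and 186 with GC and length trends removed. For carminic acid 0 became 2 with no filter, 6 with DESeq2, 34 with limma-voom, 4 with trends removed and 49 with only the 6 libraries compared. For carmine against carminic acid 1 became 2 with RLE factors or library size alone, 9 with no filter, 76 with DESeq2, 13 with limma-voom, 5 with trends removed, and 0 with non-robust estimation or an adjusted p under 0.01. Leaving out 1 library gave 0 to 36, 0 to 21 and 0 to 685 genes, the highest each time without carmine library C; the cause was not tested.

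The letters A, B and C were not used to pair libraries, since the labels do not say that they mark a shared culture. Deviations of same-letter libraries correlated between -0.294 and 0.22, and those of different letters between -0.268 and 0.352. These ranges overlap and do not settle whether libraries were paired. With the replicate block the counts were 0, 0 and 0, and with the block and trends removed 355, 11 and 9.

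Directions that reversed belonged to values near 0 or to few counts. NR1H3 with carmine was -0.0084 with library size alone, -0.0702 with limma-voom, -6e-04 with trends removed and -0.0033 with the block as well. It ran from -0.082 to 0.083 with 1 library left out, from -0.0043 to 0.0998 with carminic acid and from -0.14 to 0.0294 between the dyes. Between the dyes SOAT2 was 0.0029 with trends removed, 0.003 with the block as well, and -0.126 to 0.0764 with 1 library left out. With 1 library left out ABCA1 ran from -0.142 to 0.196 with carmine and from -0.332 to 0.0104 between the dyes, and ABCG8 from -1.32 to 1.15 between the dyes. By transcript length 6 of the 8 genes held their rank. Depth limits ABCG5, ABCG8 and CD36, which had 13 counts or fewer in every library.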
